A study of Mus musculus with 8 samples.

Results

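The 44 genes described here make, modify and sense the extracellular matrix of the liver: 14 collagen chains, 4 matrix glycoproteins and laminin chains, 3 small proteoglycans, the cross-linking enzyme Lox, 4 metalloproteinases and 3 of their inhibitors, the 3 TGF-beta ligands with their receptors and 4 SMADs, and 6 genes known from hepatic stellate cells. They were listed by name and were found on the arrays through the accession of each probe. All 44 had a probe, out of 21364 named genes, with 57 probes on 111 spots. A gene is called detected on an array here when the scanner software flagged its probe as well above background. In these hepatocyte preparations 16 of the 44 genes were detected on every array, 12 on none and 16 on some of the arrays.

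Hepatocytes came from male mice aged 12 to 14 weeks on the diet labelled Standard. The 4 hCNR1-/- mice lacked the cannabinoid 1 receptor gene Cnr1 in hepatocytes (strain label CNRO Alb-Cre), and the 4 hCNR1+/+ mice were littermate controls (strain label CNRO). The line was bred from CNR1flox/flox mice and a Cre recombinase driven by the albumin promoter, which is active in hepatocytes, so the deletion was aimed at these cells and not at other cells of the liver. Each mouse gave RNA for 1 Agilent 1-colour array, and the question was which transcripts differ between the genotypes in uninjured liver cells.

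In the liver most fibrillar collagen comes from stellate cells, which store vitamin A at rest and turn into contractile, matrix-producing cells after injury, and from portal fibroblasts. TGF-beta drives that change. A ligand (Tgfb1, Tgfb2 or Tgfb3) binds the type II receptor, which recruits and phosphorylates the type I receptor. That kinase then phosphorylates Smad2 and Smad3, which enter the nucleus with Smad4, while Smad7 blocks the receptor. Hepatocytes carry the receptors and secrete some matrix proteins themselves, among them plasma fibronectin.

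Signals are given as log2 intensity relative to the 75th percentile of the same array, so 0 is the level of that percentile. They compare arrays for 1 probe and not probes with each other. All arrays lay on 1 slide, with hCNR1+/+ in row 1 and hCNR1-/- in row 2, so genotype and slide row cannot be told apart. Cnr1 itself, with 1 probe, was detected on 0 arrays of either genotype, so on these arrays genotype rests on the labels. The study shows Cnr1 mRNA of isolated hepatocytes from both genotypes. Its methods name a preamplified PCR assay for the very low level in hepatocytes. The array of hCNR1-/- replicate 4 was the dimmest, with a 75th percentile of 29.3 against 62.0 to 139 on the others and 28.6% of spots well above background against 35.0% to 42.3%. Beside a gene whose log2 fold change moved by over 1.5 times without it, that value is given.

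A gene entered the test when 4 or more of the 8 arrays detected it, which kept 23 of the 44 genes and 11069 genes in all. At an adjusted p below 0.05 (limma, Benjamini-Hochberg over all 11069 genes), 1 of the 23 genes was lower in hCNR1-/- hepatocytes, Tgfb3, and 1 was higher, Tgfbr1. Over all genes tested, 1.3% were lower and 2.94% higher by the same rule. A fold change above 2 with an unadjusted p below 0.05 picked the same Tgfb3 and Tgfbr1, against 3.75% lower and 4.78% higher over all genes. At an unadjusted p below 0.05 alone, 2 genes were lower (Mmp15 and Tgfb3) and 2 higher (Tgfbr1 and Timp3), beside 6.92% and 14.7% of all genes. The genotypes did not overlap for Tgfb3 (lower, 5.04% of all genes) and for Tgfbr1 (higher, 12.7% of all genes). Tgfb3 was detected on 4 hCNR1+/+ arrays but 1 hCNR1-/- array, so its calls and its separation rest mostly on undetected hCNR1-/- values. Raised to the detection limit, it had a log2 fold change of −0.73 (adjusted p = 0.340, limma). Of the 23 genes 15 had a lower and 8 a higher mean in hCNR1-/-, with a median log2 fold change of −0.18 where all genes tested had 0.08. These counts depend on hCNR1-/- replicate 4. Without that array Smad2 (0.019), Smad4 (0.39), Smad7 (0.46) and Tgfbr2 (0.047) turned higher and Bgn (−0.15) turned lower. The median absolute log2 fold change was 0.42 in the 23 genes and 0.36 over all genes.

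**Figure D1:**
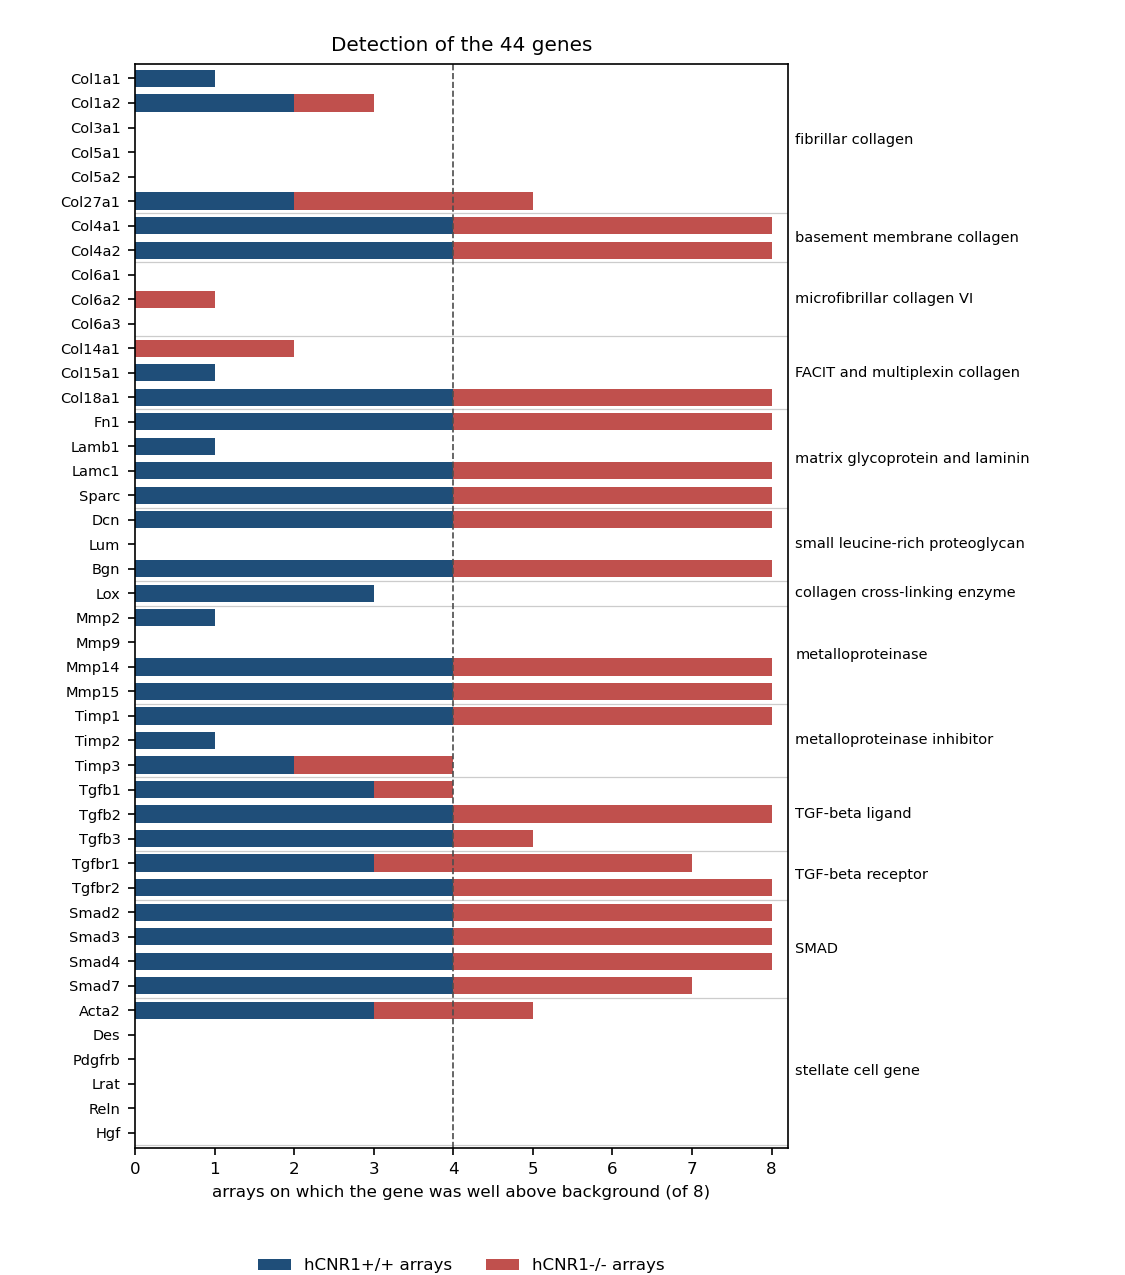
Number of arrays, of 8, that detected each of the 44 genes, with hCNR1+/+ arrays in blue and hCNR1-/- arrays in red and genes grouped by role. The dashed line marks 4 arrays, the least for a test. Stellate cell genes and fibrillar collagens are mostly empty rows, while TGF-beta receptors and SMADs are nearly full.

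Tgfb3 encodes a TGF-beta ligand and is measured by a probe printed on 10 spots of each array. Tgfb3 read −1.67, −1.64, −1.38 and −0.62 on hCNR1+/+ replicates 1 to 4 and −2.48, −2.74, −3.10 and −2.84 on hCNR1-/- replicates 1 to 4. No hCNR1-/- array reached the lowest hCNR1+/+ array. The means were −1.33 ± 0.49 (SD, n = 4) and −2.79 ± 0.26 (SD, n = 4). Tgfb3 fell by 1.46 on the log2 scale in hCNR1-/- hepatocytes, with a standard error of 0.28 and an adjusted p of 0.0277 in limma. The exact two-sided permutation p was 0.0286, the smallest that 4 against 4 arrays can give. Detection was 4 of 4 in hCNR1+/+ but 1 of 4 in hCNR1-/-, so the gene entered the test through hCNR1+/+, where it is high, and the size of the fall depends on values at or below the detection limit. With values below that limit raised to it, the log2 fold change was −0.73 (adjusted p = 0.340), and −1.14 (adjusted p = 0.0337) when hCNR1-/- replicate 4 was also left out. The direction was kept in the 23 of 24 alternative settings that tested the gene, but the call in 10. With single arrays left out it was lost without hCNR1+/+ replicate 2 or 3 or hCNR1-/- replicate 1, 2 or 3, where the log2 fold change was −1.56 to −1.36 and the adjusted p 0.0544 to 0.0942.

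Tgfb1, the ligand best known from fibrosis, read −2.84, −2.55, −2.41 and −1.72 in hCNR1+/+ and −2.94, −3.45, −3.29 and −2.37 in hCNR1-/- hepatocytes. The genotypes overlapped, with detection on 3 and 1 arrays, respectively. Its log2 fold change was −0.63 (95% interval −1.34 to 0.08, adjusted p = 0.281 from limma). Tgfb2, the third ligand, was detected on all 8 arrays at 0.73, 1.78, 2.36 and 1.88 in hCNR1+/+ and 1.71, 2.42, 1.81 and 0.89 in hCNR1-/-. These ranges overlapped almost wholly, and the log2 fold change was 0.019 (95% interval −0.89 to 0.93), or 0.29 without hCNR1-/- replicate 4.

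Tgfbr1 encodes the type I receptor, the kinase that phosphorylates Smad2 and Smad3. Tgfbr1 read −0.36, −0.23, −1.33 and −3.16 in hCNR1+/+ and 2.02, 1.01, 1.90 and 1.85 in hCNR1-/-, in the same order. All hCNR1-/- arrays were above all hCNR1+/+ arrays, which differed widely among themselves. The means were −1.27 ± 1.35 (SD, n = 4) and 1.69 ± 0.46 (SD, n = 4). Tgfbr1 rose by 2.96 on the log2 scale, with a standard error of 0.59, an adjusted p of 0.0309 in limma and an exact permutation p of 0.0286. The lowest value, in hCNR1+/+ replicate 4, was not detected, and without that array the log2 fold change was 2.33 and still past the threshold. A second Tgfbr1 probe was detected on 0 of 8 arrays, so the rise rests on 1 probe. The call held in 13 of 23 alternative settings and was lost without hCNR1+/+ replicate 3 or hCNR1-/- replicate 1, 2 or 3, at 2.86 to 3.19 with an adjusted p of 0.0599 to 0.102.

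Tgfbr2 encodes the type II receptor, which binds the ligand first, and its probes disagreed. The brighter probe read 4.33, 4.18, 4.43 and 5.13 in hCNR1+/+ and 4.38, 4.78, 4.54 and 3.10 in hCNR1-/- hepatocytes. Here the genotypes overlapped, and the lowest value was that of hCNR1-/- replicate 4. The log2 fold change was −0.32 (95% interval −1.18 to 0.54, adjusted p = 0.660 from limma) and 0.047 without that array. The other Tgfbr2 probe read 1.59, 2.13, 1.87 and 2.51 in hCNR1+/+ and 2.63, 3.05, 2.66 and 2.97 in hCNR1-/-. On this probe all hCNR1-/- arrays were above all hCNR1+/+ arrays, with a log2 fold change of 0.80 (unadjusted p = 0.00882 and adjusted p = 0.0945 over all probes, limma). It did not pass the adjusted threshold.

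**Figure D2:**
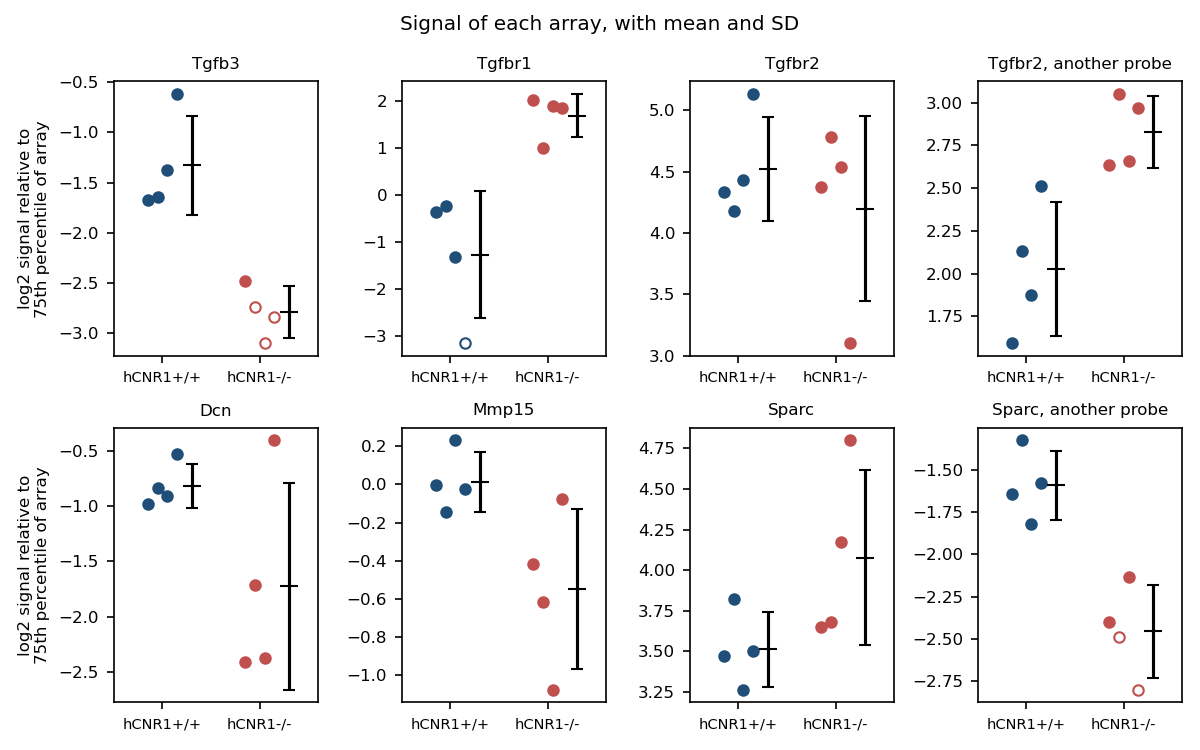
Log2 signal relative to the 75th percentile of the array for Tgfb3, Tgfbr1, Dcn and Mmp15 and for 2 probes each of Tgfbr2 and Sparc, with the 4 hCNR1+/+ arrays in blue, the 4 hCNR1-/- arrays in red, and mean ± SD in black. Open circles are values that were not detected. Tgfb3 and Tgfbr1 separate the genotypes in opposite directions, with most hCNR1-/- values of Tgfb3 undetected, and the probes of Tgfbr2 and Sparc go different ways.

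The 2 receptor genes are shown with the 250 bases before their start of transcription, because they act at the same step of the pathway and Tgfbr1 but not Tgfbr2 passed the test. The sequences are from RefSeq on assembly GRCm38.p6, read in the direction of the gene. Capitals mark matches on either strand to CAGAC (the SMAD box), GGGCGG (the GC box bound by Sp1) and CCAAT, none of which overlap.

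Tgfbr1, chr4:47352972-47353221, plus strand: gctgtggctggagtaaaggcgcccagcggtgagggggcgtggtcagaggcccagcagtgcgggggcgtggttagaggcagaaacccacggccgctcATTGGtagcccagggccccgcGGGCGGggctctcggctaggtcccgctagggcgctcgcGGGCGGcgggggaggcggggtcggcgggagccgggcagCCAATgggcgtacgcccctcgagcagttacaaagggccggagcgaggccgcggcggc

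Tgfbr2, chr9:116175364-116175613, minus strand: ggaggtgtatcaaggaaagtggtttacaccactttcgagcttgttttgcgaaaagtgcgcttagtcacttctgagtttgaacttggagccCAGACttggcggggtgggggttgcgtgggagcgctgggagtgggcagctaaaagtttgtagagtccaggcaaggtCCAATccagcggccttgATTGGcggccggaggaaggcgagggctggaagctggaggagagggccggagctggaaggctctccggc

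The Tgfbr1 window held 0 CAGAC, 2 GGGCGG and 2 CCAAT matches, and the Tgfbr2 window held 1, 0 and 2. RefSeq lists a second, downstream Tgfbr1 start, whose window at chr4:47385966-47386215 held 1, 0 and 0. Windows were matched for 29 of the 44 genes. CAGAC was found in 51.7% of these 29 genes and 45.8% of all genes with a window, GGGCGG in 65.5% and 35.4%, and CCAAT in 41.4% and 37.5%. The matches describe the letters of the windows and were not tested against expression.

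The SMADs carry the signal from the receptors to the nucleus, and all 4 were detected on 7 or 8 arrays with no call in either direction. Smad3 read 3.72, 3.77, 4.19 and 4.24 in hCNR1+/+ and 3.99, 3.90, 4.02 and 2.93 in hCNR1-/-. Smad4, the partner that both receptor SMADs share, read 3.78, 3.79, 4.0 and 4.69 in hCNR1+/+ and 4.40, 4.44, 4.53 and 2.61 in hCNR1-/-. In both genes 3 hCNR1-/- arrays lay together and replicate 4 lay far below them. Smad2 read 0.07, −0.44, −0.13 and 0.08 in hCNR1+/+ and −0.08, −0.04, −0.14 and −0.76 in hCNR1-/-. Smad7, the inhibitor that is itself switched on by the pathway, read 0.44, 0.65, 0.43 and −0.18 in hCNR1+/+ and 0.91, 0.85, 0.64 and −1.19 in hCNR1-/-. The genotypes overlapped for both, again with hCNR1-/- replicate 4 lowest. Log2 fold changes were −0.27 for Smad3, −0.071 for Smad4, −0.15 for Smad2 and −0.033 for Smad7, and without hCNR1-/- replicate 4 they were −0.0083, 0.39, 0.019 and 0.46. The 95% interval with all arrays was widest for Smad7, from −1.05 to 0.98.

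Collagen I is the main scar collagen and collagen III its usual companion in the liver. Of the 6 fibrillar collagen genes 1 was tested, Col27a1, a cartilage-type chain with a log2 fold change of 0.26 (95% interval −0.54 to 1.06), or 0.48 without hCNR1-/- replicate 4. Col1a1 was detected on 1 array, at −3.02, −3.24, −3.88 and −4.24 in hCNR1+/+ and −4.24, −4.43, −4.93 and −3.08 in hCNR1-/-. Col1a2 was detected on 3 arrays, at −1.94, −2.31, −2.95 and −1.75 in hCNR1+/+ and −2.14, −2.88, −2.64 and −1.65 in hCNR1-/-. Both ranges overlapped. Col3a1 was detected on 0 arrays, with signals of −3.92, −3.88, −3.69 and −3.17 in hCNR1+/+ and −3.94, −4.24, −4.73 and −2.09 in hCNR1-/-, as were Col5a1 and Col5a2, the chains of the minor fibrillar collagen V. These genes therefore have no fold change here.

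The lowest detected signal differed between arrays, from −3.27 to −1.90 on the first 7 and −0.85 on hCNR1-/- replicate 4. Each of the 12 genes detected on no array had its highest value on that last array.

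Basement membrane collagen was clearly detected. Col4a1 read 1.47, 1.75, 1.77 and 2.31 in hCNR1+/+ and 1.51, 1.94, 1.10 and −0.56 in hCNR1-/-, with the lowest value in hCNR1-/- replicate 4. Its log2 fold change was −0.83 (95% interval −1.92 to 0.26, adjusted p = 0.359 from limma) and −0.31 without that array. Col4a2, which forms the collagen IV trimer with Col4a1 and starts beside it on the opposite strand, was detected on all 8 arrays, with a log2 fold change of −0.51 (95% interval −1.05 to 0.03). Both chains thus had lower means in hCNR1-/- without passing the test.

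Col18a1, the parent of endostatin and a collagen that hepatocytes make, read 7.64, 7.82, 8.01 and 8.62 in hCNR1+/+ and 7.40, 8.26, 7.64 and 8.08 in hCNR1-/-. The genotypes overlapped, with a log2 fold change of −0.18 (95% interval −0.82 to 0.46), and a second probe gave 0.088. The other nonfibrillar collagens were at the edge of detection. Col6a1 and Col6a3 were detected on 0 arrays, Col6a2 and Col15a1 on 1 each and Col14a1 on 2. For Col6a2 and Col14a1 these arrays were hCNR1-/-, so neither gets a fold change.

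Fn1, fibronectin, read 9.11, 8.61, 9.33 and 9.72 in hCNR1+/+ and 8.59, 9.18, 8.81 and 7.86 in hCNR1-/-. The genotypes overlapped, and the log2 fold change was −0.58 (95% interval −1.33 to 0.16, adjusted p = 0.345 from limma), or −0.33 without hCNR1-/- replicate 4, the lowest array. Lamc1, the laminin gamma chain of most basement membranes, read 2.62, 2.56, 2.96 and 3.68 in hCNR1+/+ and 3.16, 2.90, 2.75 and 1.71 in hCNR1-/-, a log2 fold change of −0.32 with all arrays and −0.018 without hCNR1-/- replicate 4. Lamb1, a laminin beta chain, passed detection on 1 array.

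Sparc encodes a collagen-binding glycoprotein and was measured by 3 probes that did not go the same way. The brightest Sparc probe read 3.47, 3.82, 3.26 and 3.50 in hCNR1+/+ and 3.65, 3.68, 4.18 and 4.80 in hCNR1-/-, overlapping, with a log2 fold change of 0.56, an adjusted p of 0.290 in limma, and 0.32 without hCNR1-/- replicate 4. Another Sparc probe read −1.64, −1.33, −1.82 and −1.58 in hCNR1+/+ and −2.40, −2.49, −2.13 and −2.80 in hCNR1-/-. That probe put all hCNR1-/- arrays below all hCNR1+/+ arrays, at −0.86 on the log2 scale (unadjusted p = 0.00285 and adjusted p = 0.0539 over all probes, limma). The third gave 0.62. No direction is therefore given for Sparc.

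**Figure D3:**
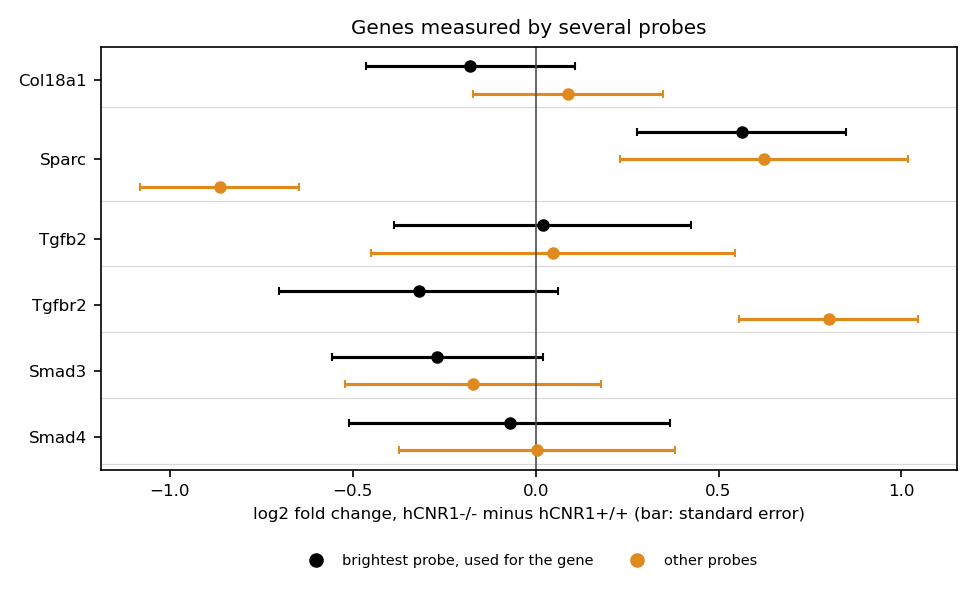
Log2 fold change (hCNR1-/- minus hCNR1+/+) with its standard error for the 6 genes that had several tested probes. Black is the brightest probe, used for the gene, and orange the others. Probes of Smad3, Smad4, Tgfb2 and Col18a1 lie within each other's errors, while those of Sparc and Tgfbr2 fall on both sides of 0.

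Among the small proteoglycans, Dcn (decorin), which binds collagen fibrils and TGF-beta, read −0.98, −0.84, −0.91 and −0.53 in hCNR1+/+ and −2.41, −1.72, −2.37 and −0.40 in hCNR1-/-. In hCNR1-/-, 3 arrays were below all hCNR1+/+ arrays and replicate 4 was above them all. The log2 fold change was −0.91 with 8 arrays (adjusted p = 0.240, limma) and −1.35 (adjusted p = 0.0135) without hCNR1-/- replicate 4. Bgn, biglycan, read −0.50, −0.16, 0.02 and 1.05 in hCNR1+/+ and −0.30, 0.14, 0.03 and 2.23 in hCNR1-/-, with replicate 4 highest in both genotypes. Its log2 fold change was 0.42 with and −0.15 without hCNR1-/- replicate 4. Lum, lumican, was detected on 0 arrays.

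Lox, the enzyme that cross-links collagen and elastin, was detected on 3 hCNR1+/+ arrays and on 0 of the hCNR1-/- arrays. Its brighter probe read −2.82, −2.76, −1.92 and −1.06 in hCNR1+/+ and −3.18, −4.05, −4.82 and −3.05 in hCNR1-/-. These ranges did not overlap, but every hCNR1-/- value was undetected, so no difference can be read from them. The other Lox probe, detected on 1 hCNR1+/+ array, did overlap. It ran from −4.09 to −1.99 in hCNR1+/+ and from −4.96 to −3.11 in hCNR1-/-. Lox was not tested, and no fold change is given.

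Of the metalloproteinases, Mmp14 and Mmp15, which sit in the cell membrane, were detected on all 8 arrays, Mmp2 (a gelatinase) on 1 and Mmp9 (the other gelatinase) on 0. Mmp15 read 0.00, −0.15, 0.23 and −0.03 in hCNR1+/+ and −0.42, −0.62, −1.08 and −0.08 in hCNR1-/-. The replicate 4 array of hCNR1-/- fell inside the hCNR1+/+ range and the other 3 below it. The log2 fold change was −0.56 (unadjusted p = 0.0458, adjusted p = 0.222 from limma), and −0.72 (adjusted p = 0.0489) without that array. Mmp14 read 0.28, −0.12, −0.09 and 0.45 in hCNR1+/+ and 0.95, 0.31, 0.00 and 0.93 in hCNR1-/-, overlapping, with a log2 fold change of 0.42 (95% interval −0.20 to 1.04).

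The inhibitors of these proteases had positive fold changes where tested. Timp1, which is induced in injured liver, read 0.74, 1.34, 1.48 and 2.12 in hCNR1+/+ and 1.34, 2.20, 2.01 and 1.98 in hCNR1-/-. The ranges overlapped, and the log2 fold change was 0.47 (95% interval −0.24 to 1.18, adjusted p = 0.428 from limma). Timp3, the matrix-bound inhibitor, was detected on 2 arrays of each genotype, with a log2 fold change of 0.62 (unadjusted p = 0.0365, adjusted p = 0.198 from limma). Timp2 was detected on 1 array by each of its probes.

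**Figure D4:**
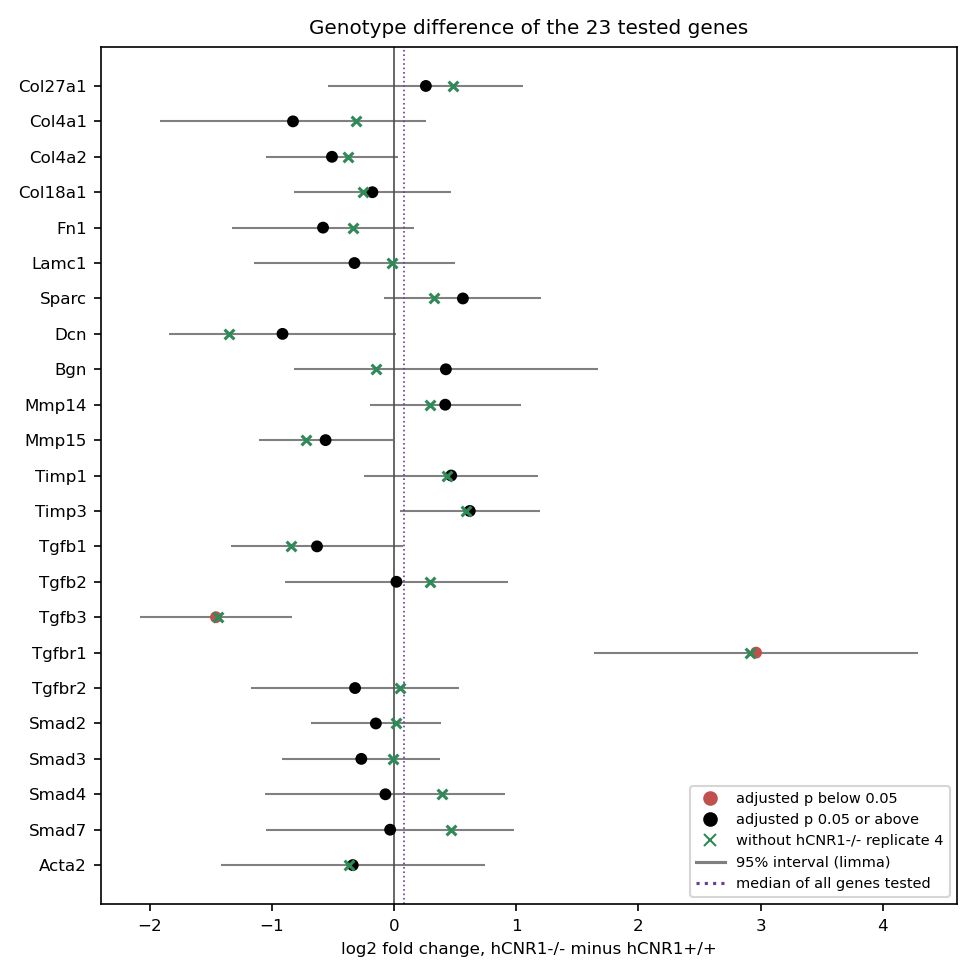
Log2 fold change (hCNR1-/- minus hCNR1+/+) of the 23 tested genes with 95% intervals from limma, red where the adjusted p was below 0.05. Green crosses leave out hCNR1-/- replicate 4, and the dotted line is the median of all genes tested, 0.08. Tgfb3 (−1.46) and Tgfbr1 (2.96) are far from 0 with or without that array, while Smad4, Smad7 and Dcn shift visibly. The point of Tgfb3 rests mostly on undetected hCNR1-/- values.

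The 6 genes grouped here as stellate cell genes were mostly at background in both genotypes. Dcn and Lum, described above, also count as stellate cell genes and were detected on 8 and 0 arrays. Acta2, smooth muscle actin and the usual mark of activated stellate cells, read −1.23, −1.16, −2.66 and −2.81 in hCNR1+/+ and −1.36, −2.98, −2.67 and −2.20 in hCNR1-/-. It was detected on 3 and 2 arrays, the genotypes overlapped, and its log2 fold change was −0.34 (95% interval −1.42 to 0.74). Des, Pdgfrb, Lrat, Reln and Hgf were detected on 0 of 8 arrays.

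Of these, Lrat, which esterifies vitamin A for storage, read −5.46, −4.06, −4.89 and −4.17 in hCNR1+/+ and −5.19, −4.32, −4.84 and −3.01 in hCNR1-/-. Des, the intermediate filament desmin, read −5.24, −3.81, −4.54 and −3.96 in hCNR1+/+ and −4.93, −4.24, −4.49 and −2.80 in hCNR1-/-. For both, the highest value was on hCNR1-/- replicate 4, the array with the highest detection limit.

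Reln, a secreted glycoprotein of quiescent stellate cells, read −4.76, −3.84, −4.68 and −3.91 in hCNR1+/+ and −4.25, −4.15, −3.65 and −2.84 in hCNR1-/-. Hgf, the hepatocyte growth factor that stellate and endothelial cells supply, read −4.75, −4.06, −4.89 and −4.18 in hCNR1+/+ and −5.18, −4.40, −4.91 and −3.05 in hCNR1-/-. Des, Pdgfrb, Lrat, Reln and Hgf were undetected, so their RNA was not seen above the detection limit of these arrays and cannot be compared between genotypes. In such preparations fewer cells of a type and less RNA per cell cannot be told apart.

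Other genes of the TGF-beta pathway gave no call at the adjusted threshold of limma. An unadjusted p below 0.05 in limma was seen for 2 higher genes for receptors and activation and for 2 lower target genes. Among SMADs and regulators it was seen for 1 lower and 3 higher genes. Over all genes tested 6.92% were lower and 14.7% higher by that rule. Of 13 tested genes for further receptors and ligand activation (19 with a probe), 6 had lower and 7 higher means, with a median log2 fold change of 0.0019. The extremes were Itgav, an integrin chain that helps release active TGF-beta, at 1.45 (adjusted p = 0.129 from limma), where another probe, detected on all 8 arrays, gave −0.0054, and Lrrc32, which tethers latent TGF-beta, at −0.53. Of 12 tested SMADs and SMAD regulators (17 with a probe) the median was −0.11, and the extremes were Skil, a repressor of SMAD target genes, at 1.94 (adjusted p = 0.0749) and Strap, a receptor-associated inhibitor, at −0.97 (−0.55 without hCNR1-/- replicate 4). Without that array 2 genes of these lists were called higher, Bmpr1a, a BMP receptor, at 1.35 (adjusted p = 0.0418, limma) and Ppm1a, a phosphatase, at 0.77 (0.0286). In that setting 1120 of all 11069 genes tested were called higher. Of 12 tested target genes (13 with a probe) the median was 0.025.

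Tgfbi, a matrix protein that TGF-beta induces, read −2.25, −1.76, −1.37 and −0.24 in hCNR1+/+ and −3.12, −2.46, −2.82 and −3.05 in hCNR1-/-, without overlap. It was detected on 4 hCNR1+/+ arrays and on 0 hCNR1-/- arrays, so it entered the test through hCNR1+/+ alone and the size of a difference is not known. With hCNR1-/- values raised to the lowest detected signal of their array, the hCNR1-/- mean was 1.73-fold lower. That is an estimate without an interval and not a limit. The fit did not pass the threshold (adjusted p = 0.0708 from limma). Cdkn2b, a cell cycle inhibitor that TGF-beta induces, had the highest value of the list at 0.60.

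Other matrix genes gave 2 calls, both higher in hCNR1-/-, where 2.94% of all genes tested were called higher. Adam10, a membrane protease that sheds surface proteins, read 0.41, −0.09, −0.27 and −0.83 in hCNR1+/+ and 1.04, 0.87, 1.70 and 1.53 in hCNR1-/-, without overlap. Adam10 rose by 1.48 on the log2 scale (adjusted p = 0.0343, limma), as 1 of 3 tested proteases and inhibitors (12 with a probe). Itgb1, the beta chain shared by most collagen, laminin and fibronectin receptors, read 0.62, 0.45, −0.16 and 0.17 in hCNR1+/+ and 1.92, 1.04, 1.67 and 2.43 in hCNR1-/-, again without overlap. Itgb1 rose by 1.50 (adjusted p = 0.0361, limma), as 1 of 14 tested matrix receptors (21 with a probe), whose median was 0.10. Of 24 alternative settings Adam10 was called in 11 and Itgb1 in 9, and leaving out any single array other than hCNR1+/+ replicate 1 or hCNR1-/- replicate 4 ended the call of Adam10, and any other than hCNR1-/- replicate 2 or 4 that of Itgb1, with adjusted p-values up to 0.110 and 0.117.

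Of 14 tested further matrix proteins (33 with a probe, 15 on no array) none was called, with a median of −0.094 and extremes in Col12a1, a fibril-associated collagen, at −1.38 (adjusted p = 0.239 from limma, −0.89 without hCNR1-/- replicate 4) and Vcan, versican, at 0.43. Of 12 tested collagen processing enzymes (16 with a probe) none was called either, with a median of −0.010 and extremes in Loxl4, a relative of Lox, at 1.77 (adjusted p = 0.0904) and Adamts2, which trims procollagen, at −0.29 (−0.45 without that array). Leaving that array out also gave calls for Loxl4, at 2.04 (adjusted p = 0.0464, limma), and for the matrix receptor Sdc3, at −1.18 (0.0452). Over all 11069 genes it gave 323 lower and 1120 higher calls. At an unadjusted p below 0.05 in limma the matrix proteins held 2 genes, both lower, and the processing enzymes 2, both higher. The matrix receptors held 1 lower and 5 higher of 14 tested, and the proteases and inhibitors 1 higher of 3. Over all genes 6.92% were lower and 14.7% higher by that rule.

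Markers of the cells that could bring matrix transcripts into the preparation were read the same way. Of 12 further stellate cell markers 7 were on no array and 2 were tested, Ecm1 at −0.23 and Angptl6 at −0.0050, and hepatocytes are known to express some of these. Of 11 portal fibroblast markers 7 were on no array and 2 were tested, Entpd2 at −0.053 and Clec3b at 0.20. Of 6 smooth muscle markers 3 were on no array and Tagln was tested, at −0.29, and all 5 mesothelial markers were on no array. Without hCNR1-/- replicate 4 these values were −0.36 for Angptl6, −0.14 for Entpd2, −0.048 for Clec3b and −0.75 for Tagln. None of these tested genes was called with or without that array, and none had an unadjusted p below 0.05 in limma with all arrays. Dcn, which also counts as a stellate cell gene, was not called with all arrays. Without hCNR1-/- replicate 4 it was, at −1.35 (adjusted p = 0.0135, limma).

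All 11 tested of 14 Kupffer cell markers had lower means in hCNR1-/-. Their median log2 fold change was −0.83 where all genes tested had 0.08, and 2 were called by limma. At an unadjusted p below 0.05 in limma 6 of the 11 were lower. Over all genes 1.3% were called lower, and 6.92% were lower at that unadjusted p. Marco, a scavenger receptor, fell by 2.41 (adjusted p = 0.0336) and Ctss, cathepsin S, fell by 1.89 (adjusted p = 0.0124). Marco was detected on all 8 arrays, but Ctss on 4 hCNR1+/+ and 2 hCNR1-/- arrays, so hCNR1+/+ alone brought Ctss into the test. The size of its fall depends partly on undetected values. With these raised to the detection limit, Ctss had −1.74 (adjusted p = 0.0249, limma). The call was lost for Ctss without hCNR1+/+ replicate 3 (adjusted p = 0.0567) or hCNR1-/- replicate 3 (0.0508), and for Marco without hCNR1+/+ replicate 2 or 3 or hCNR1-/- replicate 1, 2 or 3 (up to 0.0968). Over the alternative settings Ctss was called in 17 of 23 and Marco in 14 of 24, and with normexp Ctss had −0.58 (adjusted p = 0.0644). With replicate number as a block in limma, the adjusted p was 0.0677 for Ctss and 0.0909 for Marco, and 0 of all genes tested were called. Without hCNR1-/- replicate 4 all 11 stayed lower and 4 were called, with Vsig4 and Cd68 added, beside 323 of 11069 genes called lower in that setting. Over all 8 arrays Vsig4 was detected on 4 hCNR1+/+ and 2 hCNR1-/- arrays. The summed linear signal of the 14 markers, in units of the array's 75th percentile, ran from 86.8 to 171 in hCNR1+/+ and from 52.0 to 71.3 in hCNR1-/-, without overlap, while Cd163 and Timd4 were on no array. Bright genes weigh most in this sum. Cd68 was the brightest, with log2 means of 6.04 in hCNR1+/+ and 5.21 in hCNR1-/- (adjusted p = 0.0737, limma), so the sum is not separate from its difference. The study describes the hepatocytes as free of inflammatory cells. Tgfb3 was lower in the same arrays, and the part of Kupffer cell RNA in its value was not tested.

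Endothelial markers had 10 of 14 genes tested and none called, with Pecam1 at −0.69, Kdr at 0.75, and a summed signal of 53.6 to 106 in hCNR1+/+ and 64.9 to 325 in hCNR1-/-. Without hCNR1-/- replicate 4 Kdr had 0.15, the summed signal of hCNR1-/- ended at 82.3, and Pecam1 was called at −0.82 (adjusted p = 0.0366 from limma). Of 8 cholangiocyte markers 3 were on no array and 2 were tested, Sox9 at 0.42 and Cldn7 at 0.44. Of 12 lymphocyte markers 8 were on no array, among them Ptprc, Cd3d and Cd3g. The 3 tested ran from Nkg7 at 0.45 to Cd3e at 0.90, and no gene of either list was called. At an unadjusted p below 0.05 in limma the endothelial, cholangiocyte and lymphocyte lists held 1 lower, 0 and 1 higher gene. Over all genes 6.92% were lower and 14.7% higher by that rule. With that array left out Sox9 was called, at 1.02 (adjusted p = 0.0316 from limma), while Cldn7 had 0.12, Nkg7 0.14 and Cd3e 0.57. In that setting 323 of 11069 genes were called lower and 1120 higher. All 12 hepatocyte markers were detected on every array, which fits the labelled cell type, with a median of −0.12 and extremes in Pck1, the gluconeogenic enzyme, at −1.81 (adjusted p = 0.0515 from limma) and Ahsg, fetuin-A, at 0.61 (0.30 without hCNR1-/- replicate 4).

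**Figure D5:**
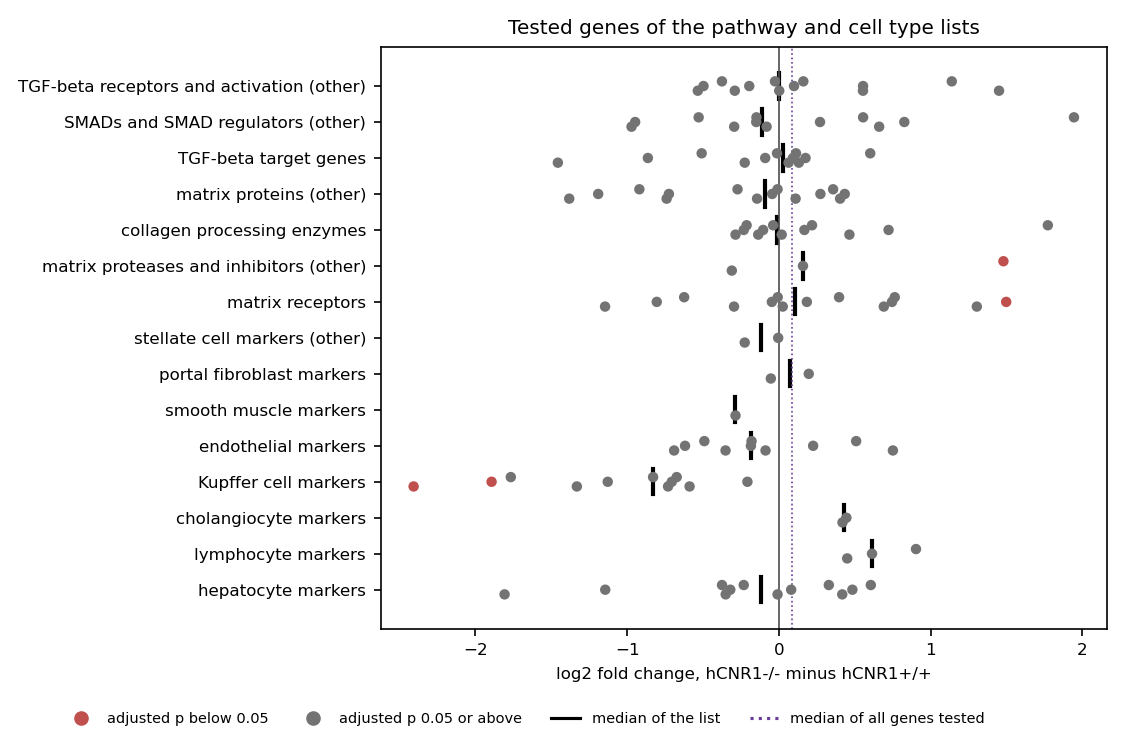
Log2 fold change (hCNR1-/- minus hCNR1+/+) of each tested gene in the lists of other pathway genes and cell type markers, 1 point per gene, red where the adjusted p was below 0.05, with the median of each list as a bar and that of all genes as a dotted line. All 11 Kupffer cell points lie below 0, and the called genes are Adam10, Itgb1, Marco and Ctss.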

How the data were processed

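RNA of hepatocytes from 4 hCNR1+/+ and 4 hCNR1-/- mice was read on 1-colour Agilent arrays. A figure legend of the study gives fewer mice than the labels, and all labelled arrays were used. The authors deposited the processed spot intensity of Feature Extraction version 12.0.3.1, corrected for background within each array and not scaled between arrays, and a score for each spot, which differed by at most 0.005 from a z-score of the array's log intensities. After conversion to log2, values were expressed relative to the 75th percentile of an array's non-control spots. Outlier spots were dropped, the spots of a probe averaged, and a probe counted as well above background where at least 50% of its spots were flagged so. Accessions were named through RefSeq for GRCm38.p6 (28325 of 55681 probes). The brightest probe of a gene, well above background on at least 4 arrays, was tested with limma version 3.58.1 in R version 4.3.3 (two-sided, Benjamini-Hochberg). The number of arrays limits the precision. With 1 array per mouse, p-values set the genotype difference against the variation between arrays, in which mouse and array effects cannot be separated. The 44 genes and the lists of other genes were chosen with earlier results of these data known. Array values are given for genes past a threshold, without overlap, among the 8 brightest or named in the rule; from other lists the called genes or the extremes are named, and some genes of these lists are not reported here and are left out of the lists' counts. Some genes and probes singled out beyond this (Dcn, Bgn, Lox, Mmp14, Mmp15 and the second probes of Tgfbr2 and Sparc) were chosen after their values were seen. The normexp alternative used the median spot signal. The fit was tested on simulated data.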

Additional observations from a re-analysis of the deposited data

Results flagged for a closer look

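Among the 46 sets of 4 arrays (23 genes in 2 genotypes), 5 held an array that Dixon's test at the 95% level set apart from the other 3, where the ratio is the distance to its neighbour divided by the spread of all 4. Chance alone is set to mark about 1 in 20 sets. In hCNR1-/- hepatocytes replicate 4 was low for all 4 SMADs, with ratios of 0.86 for Smad2 (−0.76 against −0.14 to −0.04), 0.888 for Smad3 (2.93 against 3.90 to 4.02), 0.934 for Smad4 (2.61 against 4.40 to 4.53) and 0.874 for Smad7 (−1.19 against 0.64 to 0.91). That array also had the lowest 75th percentile, 29.3, and the fewest spots well above background, 28.6%, and their part in these values was not tested. Tgfbr1 had a ratio of 0.833 in hCNR1-/-, where replicate 2 read 1.01 against 1.85 to 2.02.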

How the results depend on the processing

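Tgfb3 kept its direction in the 23 settings that tested it, from −2.01 to −0.38, with an adjusted p below 0.05 in 10 and adjusted p-values from 0.00246 to 0.340. Tgfbr1 ran from 1.62 to 3.31, with 13 of 23 below 0.05 and adjusted p-values from 0.0034 to 0.469. At the adjusted threshold 0 genes were lower and 0 higher with median scaling, no scaling, quantile normalization, the deposited z-scores, no filter, the replicate block, or only probes detected on all 8 arrays, where neither gene was tested, and 0 were lower with normexp and with the detection floor. With array weights 4 were lower (Tgfb3, Dcn, Mmp15 and Tgfb1). With 1 array left out, 0 to 3 were lower and 0 to 1 higher, 3 being Tgfb3, Dcn and Mmp15 without hCNR1-/- replicate 4. That array with the detection floor also gave 3. Both calls were lost without hCNR1+/+ replicate 3 and without hCNR1-/- replicates 1, 2 or 3, and Tgfb3's also without hCNR1+/+ replicate 2. By the rule of fold change over 2 with unadjusted p under 0.05, 3 were lower without scaling (Dcn and Tgfb1 added), 2 with the percentile over bright probes, the z-scores, array weights (Dcn added in each) or no filter (Lox added), 0 with normexp, the detection floor or all 8 arrays (also 0 higher), and 1 to 2 with 1 array left out (1 higher in each). The cause was not tested, except that fewer genes were tested with the stricter filter. The detection floor was added after seeing the data.

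Over all genes the adjusted counts, 144 lower and 325 higher, were 0 and 0 with the replicate block, 14 and 8 without a filter, 25 and 25 with median scaling, 29 and 1 without scaling, 86 and 131 with quantile normalization, 51 and 30 with z-scores, 209 and 101 with the bright-probe percentile, 646 and 2175 with array weights, and 323 and 1120 without hCNR1-/- replicate 4. With 1 array left out they were lowest, 25 and 13, without hCNR1+/+ replicate 3. Fold changes depend on the scaling. Their median over all genes was −0.47 without scaling, −0.08 with the bright-probe percentile and −0.01 with quantile normalization, against 0.08 in the reported test. Replicate numbers share only a slide column, and deviations of same-numbered arrays correlated at 0.21, −0.16, −0.05 and 0.02. With the replicate block Tgfb3 had an adjusted p of 0.0869 and Tgfbr1 of 0.0854.

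None of the genes whose direction turned was called in the reported test, and under the alternatives Sox9 was called in 3, Itgav in 1 and Tgfb1 in 1. Without scaling Tgfb2 had −0.54, Sox9 −0.14, Bgn −0.13, Col27a1 −0.30, Mmp14 −0.14, Timp1 −0.089, Cldn7 −0.11, Clec3b −0.36, Nkg7 −0.11 and Vcan −0.12. Tgfb2 also had −0.028 with median scaling, −0.14 with the bright-probe percentile, −0.16 with z-scores, −0.019 with normexp and −0.048 with quantile normalization, and Angptl6 0.0086 with z-scores. Array weights gave Lamc1 0.067, Smad2 0.049, Smad4 0.47, Smad7 0.31 and Tgfbr2 0.15. Itgav had −0.0054 where all 8 arrays were required, and Tgfbr2 0.24 over the mean of its probes. The floor gave Acta2 0.068, Smad7 0.052 and Tgfb1 0.043, and without hCNR1-/- replicate 4 as well it gave Bgn −0.15, Smad2 0.019, Smad4 0.39, Smad7 0.46, Tgfbr2 0.047 and Clec3b −0.26. With 1 array left out at a time, Tgfb2 ran from −0.30 to 0.29, Angptl6 from −0.36 to 0.21, Bgn from −0.15 to 0.74, Clec3b from −0.048 to 0.45, Tgfbr2 from −0.51 to 0.047, Smad2 from −0.26 to 0.019, Smad4 from −0.25 to 0.39, Smad7 from −0.23 to 0.46, Col18a1 from −0.32 to 0.022, Entpd2 from −0.16 to 0.070 and Tagln from −0.75 to 0.060.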
